A study of Homo sapiens with 3 samples.

Results

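The mitotic kinases examined here are 10 protein kinase genes, CDK1, PKMYT1, PLK1, AURKA, AURKB, NEK2, PLK4, BUB1, BUB1B and TTK. They were taken by symbol from a gene table of 58333 Ensembl identifiers, each symbol matched 1 identifier, and all 10 passed the filter of a mean of 10 normalized counts that left 20247 genes for testing. The libraries came from Cal62, an established human thyroid tumor cell line, transfected with a negative control siRNA (siControl) or with siADAR1 #1 or siADAR1 #2, siRNAs directed at ADAR, the gene of the RNA-editing enzyme ADAR1. All 3 groups went through the same lipid transfection, poly(A)+ RNA was sequenced from 2 libraries of each, and the interval from transfection to RNA isolation is not given in the sources used here. Every library comes from a single cell line, so the spread between libraries is that between transfected cultures of this line and not between tumors.

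These kinases drive the cell from G2 into and through mitosis. CDK1 bound to cyclin B is the master kinase of mitotic entry, and PKMYT1, with its relative WEE1, holds it back by phosphorylating it. Polo-like and Aurora kinases build the spindle and position the chromosomes, PLK4 starts centriole duplication, and BUB1, BUB1B and TTK run the spindle checkpoint, which delays anaphase until every kinetochore is attached. Many of their mRNAs rise together in G2 and M, when transcription through CHR and CCAAT promoter elements is released from repression by the DREAM complex and activated by MYBL2 and FOXM1.

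Promoter stretches are shown for some of the kinases whose windows hold elements through which this joint regulation is known to act. RefSeq windows of GRCh38.p14, from 250 bases before to 50 bases after an annotated start, were at hand for 7 of the kinases, in 11 windows. AURKA, TTK and PKMYT1 were not in that table. The stretches were picked around matches, and AURKB and PLK4, whose matches are counted further below, are not printed. Both strands were searched for the CHR (TTTGAA or TTCGAA) and for CCAAT, letters that do not overlap each other in the stretches below. Capitals mark these matches, and ATTGG is CCAAT read on the other strand. All sequences run 5′ to 3′ on the strand of the gene.

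The stretch of CDK1 lies 80 to 51 bases before its second annotated start, at chr10:60778398-60778427 (plus strand), and holds a CCAAT and a CHR next to each other. That of PLK1 is the 120 bases before the start, at chr16:23678769-23678888 (plus strand), and holds a CCAAT at -73 and a CHR at -29. That of NEK2, at chr1:211675622-211675741 (minus strand), holds 2 CCAAT letters, at -66 and -34. That of BUB1, at chr2:110678064-110678183 (minus strand), holds 2 as well, at -79 and -54, and a CHR of the second form begins at base 1 after its start, outside the stretch. That of BUB1B, at chr15:40161034-40161063 (plus strand), holds a CHR at -23.
CDK1: tgATTGGctgcTTTGAAagtctacgggcta
PLK1: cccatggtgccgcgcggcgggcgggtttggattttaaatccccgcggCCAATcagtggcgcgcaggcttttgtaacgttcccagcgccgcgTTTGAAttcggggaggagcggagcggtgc
NEK2: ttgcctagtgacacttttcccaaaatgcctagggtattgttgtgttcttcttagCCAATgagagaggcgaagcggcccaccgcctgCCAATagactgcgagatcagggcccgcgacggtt
BUB1: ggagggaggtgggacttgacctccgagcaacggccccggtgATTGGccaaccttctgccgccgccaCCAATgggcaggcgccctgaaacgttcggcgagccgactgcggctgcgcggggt
BUB1B: gggaccgttaaaTTTGAAacttggcggcta

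Across the whole windows, 5 of the 7 kinases had a CHR (CDK1, PLK1, PLK4, BUB1 and BUB1B) and 6 had a CCAAT (all but BUB1B), counted per gene over its windows. Of all 27305 genes in the RefSeq table, 19.5% had a CHR and 39.7% a CCAAT in some window. Both lay in 1 window for 3 kinases (CDK1, PLK1 and BUB1), while PLK4 had them in separate windows. Among all 35116 windows, 16.4% held a CHR, 34.6% a CCAAT, 6.38% both, and 10.8% at least 2 CCAAT. The E2F letters searched (TTTGGCGC, TTTCCCGC, TTTCGCGC and TTTGCCGC) were found in 3.32% of the windows and, among the kinases, only in those of CDK1. These matches are descriptions of the letters in the windows and not of bound factors.

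Knockdown was read first from ADAR itself. Its normalized counts, deposited values returned to a linear scale, were 10906 and 11701 in the siControl libraries, 1328 and 2246 with siADAR1 #1 and 1663 and 2928 with siADAR1 #2. Every siADAR1 library was thus far below both siControl libraries. The log2 fold change (log2FC) against siControl was -2.71 ± 0.30 (SE; adjusted p = 0.00355) with siADAR1 #1 and -2.35 ± 0.30 (adjusted p = 0.00153) with siADAR1 #2. ADAR was not called between the siRNAs (0.35, 95% CI -0.36 to 1.06, adjusted p = 0.406). These and all later p-values come from limma fits, adjusted over all genes tested, and a gene was called when its adjusted p was under 0.05 and its log2FC beyond 0.5 in either direction.

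The libraries held 30114840 to 50029763 reads on genes, and each kinase had 552 to 9243 reads in a library. Intervals from read counts alone are therefore narrow. The p-values below rest on the spread between libraries within groups, pooled over the groups of a fit. Limma also moderates this spread toward that of other genes of similar level. Of the thyroid markers, PAX8 was high in siControl at 14897 ± 1372 normalized counts (SD, n = 2), whereas TG, TSHR, SLC5A5 and NKX2-1 held 0 to 84 reads in any library. These markers were thus low or absent beside PAX8, and they do not stand for the whole thyroid program. The 5 leukocyte and endothelial markers held 0 to 34 reads. PAX8 itself averaged 12673 ± 3396 with siADAR1 #1 and 4013 ± 2080 with siADAR1 #2. For the other markers, means are given in the order siControl, siADAR1 #1 and siADAR1 #2. The mesenchymal genes VIM (99115, 11707 and 58927) and FN1 (170724, 88320 and 54810) were lower with both siRNAs on average, VIM most with siADAR1 #1. For FN1 the libraries of the siRNAs overlapped (68030 and 108609 with siADAR1 #1, 28977 and 80643 with siADAR1 #2). The cadherin CDH2 averaged 5998, 4963 and 5608. The epithelial markers did not share 1 direction. The keratin KRT19 averaged 2919, 3324 and 6655, while KRT18 averaged 43677, 60405 and 24166 and KRT8 averaged 34919, 38454 and 39564. EPCAM averaged 1804, 2026 and 2253. CDH1 averaged 125, 51 and 116, but its libraries lay far apart in siControl (210 and 40) and with siADAR1 #2 (196 and 37). The part of these differences in the results for the kinases was not tested.

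With siADAR1 #2, all 10 kinases fell, to between 40.1% and 65.7% of their siControl means. With siADAR1 #1, 5 of 10 fell (CDK1, PKMYT1, PLK1, AURKB and BUB1B), to between 45.1% and 64.0%, and none of the 10 rose with either siRNA. Of all genes tested, 11.0% were called lower with siADAR1 #1 and 16.0% with siADAR1 #2, while 6.39% and 11.6% were called higher. The median log2FC of the 10 kinases was -0.53 with siADAR1 #1 and -1.06 with siADAR1 #2, against -0.03 and -0.02 over all genes tested. Without overlap, both siADAR1 #1 libraries lay under both siControl libraries for 8 of 10 kinases and 33.4% of all genes tested, and both siADAR1 #2 libraries for 10 of 10 and 35.6%. In bulk RNA, a smaller share of cells in G2 and M and less of each mRNA per cell cannot be told apart, which holds for every change below.

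**Figure D1:**
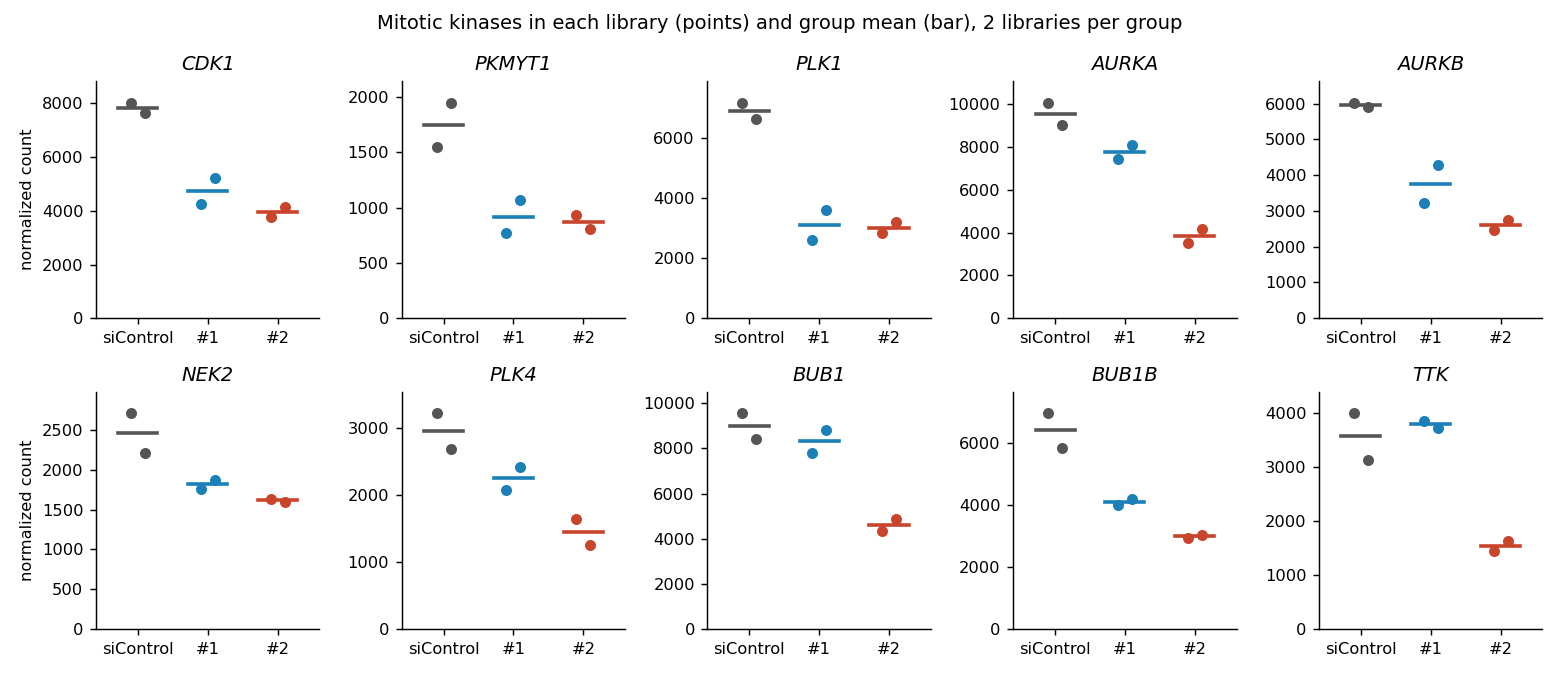
Normalized counts (vertical axes, from 0) of the 10 mitotic kinases in each library, as points, with the group mean as a bar, for siControl, siADAR1 #1 and siADAR1 #2 (2 libraries each). With siADAR1 #2 both points lie below both siControl points for every kinase, whereas with siADAR1 #1 those of BUB1 and TTK overlap siControl.

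Of the CDK1 switch, CDK1 itself and its inhibitor PKMYT1 were called lower with both siRNAs. CDK1 (10:60778331-60794852 in GRCh38) had 8031 and 7627 normalized counts in siControl, 4268 and 5239 with siADAR1 #1 and 3756 and 4144 with siADAR1 #2. Both siControl libraries stood well above every siADAR1 library. The change was -0.73 ± 0.13 (log2FC ± SE, adjusted p = 0.0113) with siADAR1 #1 and -0.99 ± 0.13 (adjusted p = 0.00173) with siADAR1 #2. The difference between the siRNAs was not called, at -0.26 (95% CI -0.57 to 0.05, adjusted p = 0.162).

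PKMYT1 (16:2968024-2980479), the membrane-bound inhibitor of CDK1, was the scarcest of the kinases in reads. Its normalized counts were 1553 and 1950.2 in siControl, 769.6 and 1066 with siADAR1 #1 and 932 and 809 with siADAR1 #2. No siADAR1 library reached the lower siControl library, and the siControl libraries were further apart than for CDK1. It fell by 0.94 ± 0.20 on the log2 scale with siADAR1 #1 (adjusted p = 0.0183) and by 1.00 ± 0.20 with siADAR1 #2 (adjusted p = 0.00828). The latter call was lost without siControl replicate 2 (-0.84, adjusted p = 0.0669). Of its annotated exon bases, 24.7% are shared with PAQR4 on the opposite strand, which held 442 to 881 reads, and whether the counting used strand is not stated, so reads of the pair may be mixed.

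The ratio of inhibitor to kinase was compared within the libraries, as values, since groups of 2 libraries do not allow a useful exact test. The ratio of PKMYT1 to CDK1 normalized counts ran from 0.193 to 0.256 in siControl, from 0.180 to 0.204 with siADAR1 #1 and from 0.195 to 0.248 with siADAR1 #2, and the 3 ranges overlapped. WEE1, the nuclear inhibitor, was not called with either siRNA (log2FC -0.45, adjusted p = 0.15, and -0.12, adjusted p = 0.673). Its ratio to CDK1 was 0.574 and 0.732 in siControl and 1.10 and 1.27 with siADAR1 #2, without overlap, whereas with siADAR1 #1 the values of 0.602 and 1.02 overlapped those of siControl. CCNB1, the cyclin B1 that CDK1 needs, was 1.88 times CDK1 in each siControl library, 2.32 and 2.52 times with siADAR1 #1 and 1.13 and 1.32 times with siADAR1 #2. The ratio was thus higher than siControl with one siRNA and lower with the other.

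PLK1 (16:23677656-23690367), the polo-like kinase of mitotic entry, spindle assembly and cytokinesis, was the member with the largest fall with siADAR1 #1. It had 7186 and 6628 normalized counts in siControl, 2616 and 3610.2 with siADAR1 #1 and 2826 and 3206 with siADAR1 #2. The siADAR1 libraries interleaved, and all were far below siControl. The change was -1.17 ± 0.17 (adjusted p = 0.00573) with siADAR1 #1 and -1.20 ± 0.17 (adjusted p = 0.00203) with siADAR1 #2. The difference between the siRNAs was -0.03 (95% CI -0.42 to 0.36, adjusted p = 0.908), an interval that leaves room for a modest difference either way.

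Of the Aurora kinases, AURKB was called with both siRNAs and AURKA with siADAR1 #2 only. Their changes were not tested against each other. AURKA (20:56369389-56392337), which acts at centrosomes and spindle poles, had 10065 and 9017 normalized counts in siControl, 7411 and 8078 with siADAR1 #1 and 3505 and 4148 with siADAR1 #2. The siADAR1 #1 libraries lay between the others, below both siControl libraries and well above both siADAR1 #2 libraries. With siADAR1 #1 the log2FC of -0.30 ± 0.13 was not called (adjusted p = 0.147), and with siADAR1 #2 AURKA fell more than any other member, by 1.32 ± 0.13 (adjusted p = 0.000591). The difference between the siRNAs was -1.02 ± 0.13 (adjusted p = 0.000981).

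AURKB (17:8204733-8210600), the kinase of the chromosomal passenger complex at centromeres, fell with both. Its normalized counts were 6027 and 5893 in siControl, 3217 and 4294 with siADAR1 #1 and 2457 and 2752 with siADAR1 #2, which puts the 3 groups in order without overlap. The change was -0.68 ± 0.15 (adjusted p = 0.0226) with siADAR1 #1 and -1.20 ± 0.15 (adjusted p = 0.00153) with siADAR1 #2. The difference between the siRNAs, -0.51 ± 0.15 (adjusted p = 0.0339), lay close to the threshold of 0.5 and was lost under 9 of 16 alternative settings. Those included leaving out any 1 library other than siADAR1 #1 replicate 1, with adjusted p-values from 0.0632 to 0.164. Within libraries, normalized counts of AURKB, not divided by length, were 0.599 and 0.654 times those of AURKA in siControl. They were 0.434 and 0.531 times with siADAR1 #1 and 0.663 and 0.701 times with siADAR1 #2.

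NEK2 and PLK4 serve the centrosome. NEK2 (1:211658657-211675630), which loosens the link between centrosomes, had 2710.5 and 2212 normalized counts in siControl, 1765 and 1870.4 with siADAR1 #1 and 1635 and 1598 with siADAR1 #2. The libraries of each siRNA lay within a narrow band, and siControl was above both bands. Its log2FC was -0.43 ± 0.14 (adjusted p = 0.0683, not called) with siADAR1 #1. It fell least of the members with siADAR1 #2, by 0.60 ± 0.14 (adjusted p = 0.0149), a call lost under 5 of 16 settings. Those that left out a library were without siControl replicate 1 (-0.45, adjusted p = 0.0946), siADAR1 #2 replicate 1 (-0.61, adjusted p = 0.0707) and siADAR1 #2 replicate 2 (-0.58, adjusted p = 0.0659).

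PLK4 (4:127880893-127899224), the kinase that licenses the formation of new centrioles, had 3227 and 2692 normalized counts in siControl, 2083 and 2427 with siADAR1 #1 and 1651 and 1259.7 with siADAR1 #2. The 3 groups stood in order without overlap. The log2FC with siADAR1 #1 was -0.39 ± 0.17 (adjusted p = 0.164, not called), PLK4 fell by 1.03 ± 0.17 with siADAR1 #2 (adjusted p = 0.00415), and the siRNAs differed by -0.64 ± 0.17 (adjusted p = 0.023). That difference was not called without siADAR1 #1 replicate 2 (-0.53, adjusted p = 0.0989) or siADAR1 #2 replicate 2 (-0.44, adjusted p = 0.128). Against PLK1, its ratio of normalized counts was 0.449 and 0.406 in siControl, 0.796 and 0.672 with siADAR1 #1 and 0.584 and 0.393 with siADAR1 #2.

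Of the spindle checkpoint kinases, BUB1 and TTK were called with siADAR1 #2 only and BUB1B with both siRNAs. BUB1 (2:110637528-110678063), which docks checkpoint proteins at kinetochores, had 9556 and 8399 normalized counts in siControl, 7806 and 8824 with siADAR1 #1 and 4335 and 4859 with siADAR1 #2. The siControl and siADAR1 #1 libraries overlapped, and the siADAR1 #2 libraries stood apart below both. With siADAR1 #1 the log2FC was -0.11 (95% CI -0.40 to 0.18, adjusted p = 0.593). With siADAR1 #2 BUB1 fell by 0.96 ± 0.13 (adjusted p = 0.00154), and the siRNAs differed by -0.85 ± 0.13 (adjusted p = 0.00181).

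TTK (6:80003887-80042527), the kinase also called MPS1 that starts checkpoint signalling, followed the same course. It had 3990.0 and 3134 normalized counts in siControl, 3848 and 3721 with siADAR1 #1 and 1436 and 1623 with siADAR1 #2. Both siADAR1 #1 libraries lay between the siControl libraries. The log2FC with siADAR1 #1 was 0.10 (95% CI -0.25 to 0.44, adjusted p = 0.694), while with siADAR1 #2 TTK fell by 1.21 ± 0.15 (adjusted p = 0.00126). The difference between the siRNAs, -1.31 ± 0.15 (adjusted p = 0.000686), was the largest among the members.

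BUB1B (15:40161023-40221123) encodes BUBR1, a subunit of the mitotic checkpoint complex that restrains the anaphase-promoting complex (APC/C). It had 6964 and 5856 normalized counts in siControl, 4013 and 4192 with siADAR1 #1 and 2948 and 3022 with siADAR1 #2, in order and without overlap. It fell by 0.64 ± 0.12 with siADAR1 #1 (adjusted p = 0.0133) and by 1.10 ± 0.12 with siADAR1 #2 (adjusted p = 0.00092). The difference between the siRNAs had an adjusted p of 0.0216 but at -0.46 did not reach the fold threshold, which it passed only after median centring (-0.56, adjusted p = 0.00844). In normalized counts not divided by length, BUB1B was 0.514 and 0.475 times BUB1 with siADAR1 #1, below the 0.729 and 0.697 of siControl. With siADAR1 #2 it was 0.680 and 0.622 times. On the same scale, TTK was 0.573 and 0.535 times BUB1B in siControl. It was 0.959 and 0.888 times with siADAR1 #1 and 0.487 and 0.537 times with siADAR1 #2.

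**Figure D2:**
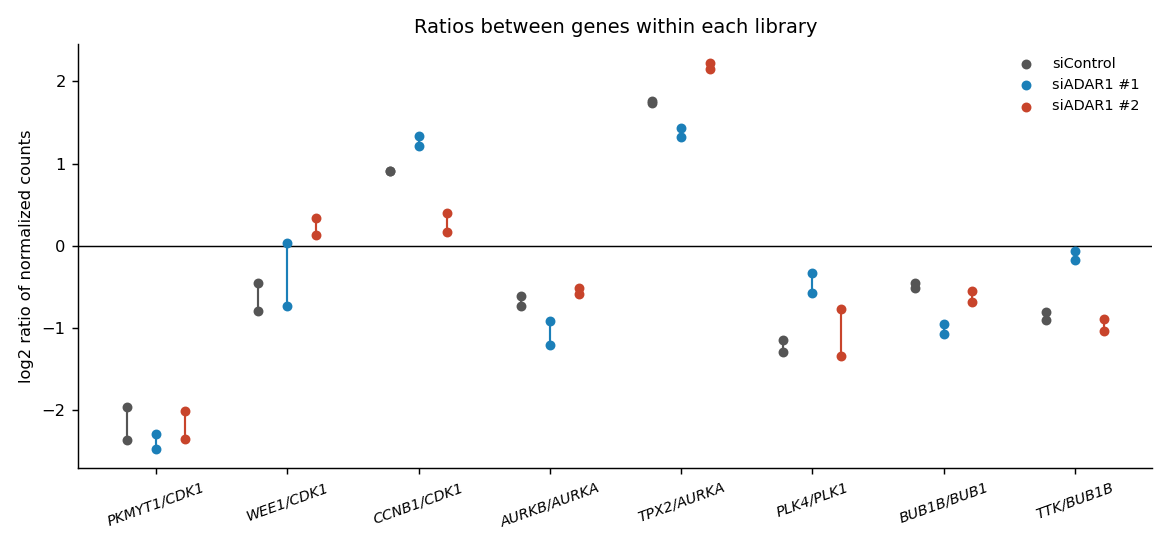
Log2 ratio of normalized counts between pairs of genes within each library (points, joined by a line per group of 2 libraries), for siControl, siADAR1 #1 and siADAR1 #2. Counts are not divided by length, so only groups within a pair are comparable; BUB1B/BUB1 is lowest with siADAR1 #1 (0.514 and 0.475 on the linear scale), where TTK/BUB1B is highest (0.959 and 0.888).

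Directly compared, 5 of 10 kinases were lower with siADAR1 #2 than with siADAR1 #1 (AURKA, AURKB, PLK4, BUB1 and TTK), where 16.5% of all genes tested were. Of these 5, AURKB was the only one also called lower with siADAR1 #1. Thus CDK1, PKMYT1, PLK1 and BUB1B were called with each siRNA and not between them, and NEK2 was called only with siADAR1 #2 without a called difference. Both siADAR1 #2 libraries lay under both siADAR1 #1 libraries for 8 of 10 kinases and 35.3% of all genes tested. The median difference was -0.49 over the kinases and 0.01 over all genes tested. The 5 kinases called lower with each siRNA were 5 of 10, and 3.55% of all genes tested were.

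**Figure D3:**
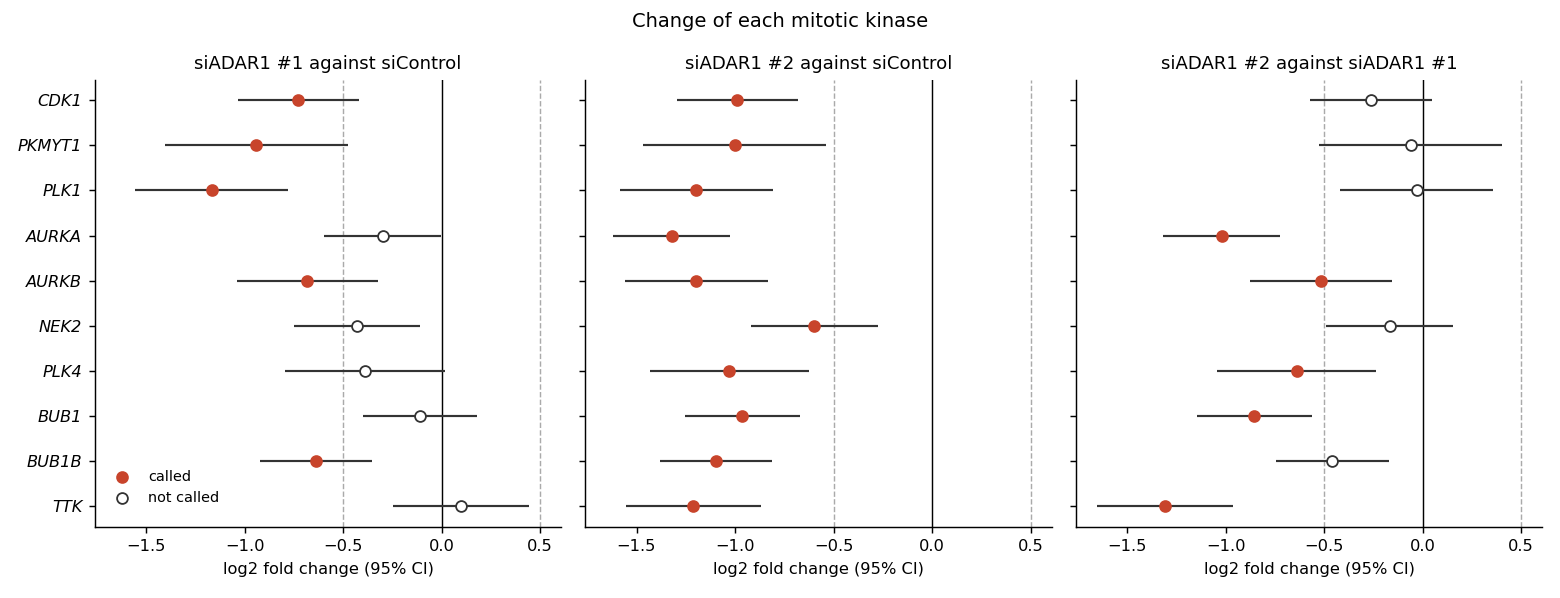
Log2 fold change of each kinase (points) with its 95% CI from the limma fit, for siADAR1 #1 against siControl, siADAR1 #2 against siControl and siADAR1 #2 against siADAR1 #1. Filled points were called and dashed lines mark 0.5 in either direction; 5, 10 and 5 kinases were called.

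The calls with siADAR1 #1 depended on single libraries. The 5 calls became 0 without siControl replicate 1, 2 without siControl replicate 2 (PLK1 and BUB1B) and 1 without siADAR1 #1 replicate 1 (PLK1), and over all genes tested the number called lower went from 2225 to 155, 801 and 888 in these fits. Without siControl replicate 1 the log2FC values of the 5 were -0.69 (CDK1), -1.10 (PKMYT1), -1.11 (PLK1), -0.66 (AURKB) and -0.51 (BUB1B), with adjusted p-values from 0.0626 to 0.124, so the calls were lost through the p-values and not the fold threshold. The split of calls over all genes with siADAR1 #1, 2225 lower and 1293 higher, also moved with scaling, to 1723 and 1938 when libraries were centred on their median and to 1827 and 1686 after quantile normalization, and with median centring BUB1B fell just short of the fold threshold.

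When both siRNAs were taken as 1 group against siControl, limma called 0 of 10 kinases and 0% of all genes tested. The log2FC values of the kinases ran from -0.51 to -1.18 and their adjusted p-values from 0.111 to 0.64. At an unadjusted p under 0.05 there were 7 of 10 kinases and 14.2% of all genes, and AURKA, BUB1 and TTK were the 3 outside. This fit counts the difference between the siRNAs as noise. The average of both changes in the fit with 3 groups, which does not, called 10 of 10 kinases lower, with adjusted p-values from 0.0036 to 0.0219, and 11.5% of all genes. A call on the average need not mean a fall with each siRNA. BUB1 (-0.54) and TTK (-0.56) were called, though with siADAR1 #1 they were at -0.11 and 0.10 and not called. These and NEK2 (-0.51) lay just past the fold threshold. For 8 of 10 kinases, and for 17.0% of all genes tested, each of the 4 siADAR1 libraries was lower than either siControl library.

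Levels can be compared between the kinases only per length, here as normalized counts per kilobase of the Ensembl canonical transcript (GENCODE 44). In siControl the order was AURKB (4795 ± 76, SD, n = 2), AURKA (4693 ± 365), CDK1 (4145 ± 151), PLK1 (3198 ± 183), BUB1 (2386 ± 217), BUB1B (1747 ± 214), TTK (1201 ± 204), NEK2 (1153 ± 165), PKMYT1 (849.8 ± 136) and PLK4 (771 ± 99). The libraries overlapped between AURKB and AURKA, between TTK and NEK2 and between PKMYT1 and PLK4, so these neighbors were not told apart. With siADAR1 #1, AURKA led at 3809 ± 232 without overlap with AURKB, and BUB1 and TTK stood above PLK1 and BUB1B, respectively. With siADAR1 #2 the first 3 places (AURKB 2096 ± 168, CDK1 2091 ± 145 and AURKA 1882 ± 224) overlapped, and TTK came after NEK2 at 516 ± 45. Dividing by the length of all annotated exons instead put AURKA above AURKB in siControl (3259 against 2660) and PKMYT1 last at 352. It also brought PLK1 (1451), BUB1B (1436) and BUB1 (1424) close together and put NEK2 (795) above TTK (778). The order thus depended on the length used, at its ends as well as in the middle.

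**Figure D4:**
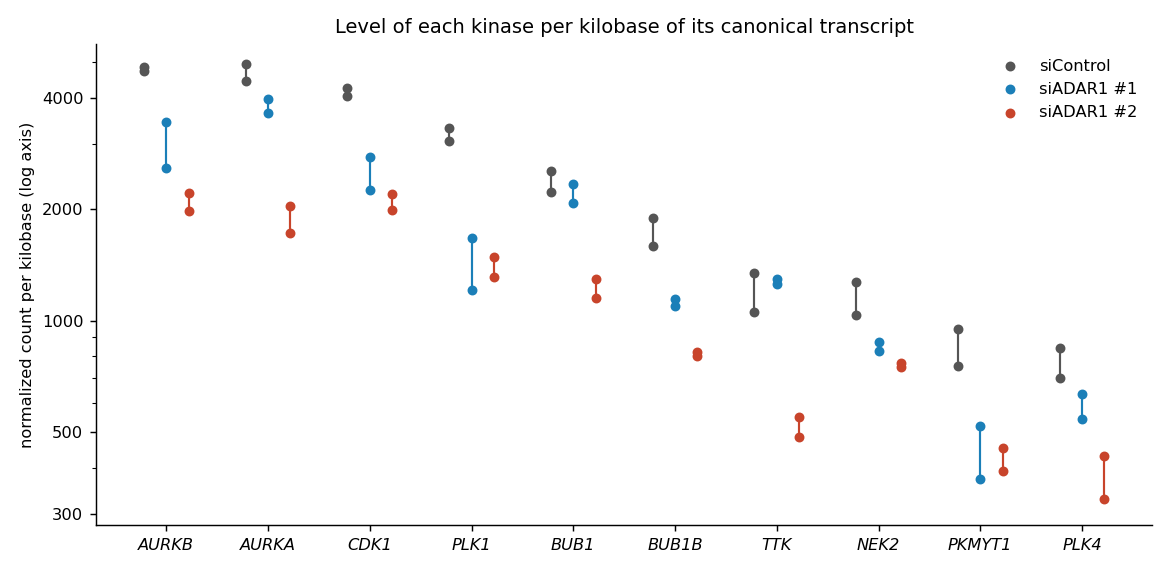
Normalized counts per kilobase of canonical transcript (log axis) for each kinase in each library, in the order of the siControl means, with the 2 libraries of a group joined by a line. The siControl means run from 4795 for AURKB to 771 for PLK4.

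The kinases also differed in how alike their profiles were over the 6 libraries, which is given as a description, since the points share their groups. Pearson's r was 0.991 between AURKA and BUB1, 0.983 between CDK1 and AURKB, 0.975 between BUB1 and TTK, 0.973 between PLK1 and CDK1 and 0.400 between PKMYT1 and TTK. The mean profile of the 10, each gene centred on its own mean, was 0.60 and 0.46 on the log2 scale in siControl, -0.11 and 0.11 with siADAR1 #1 and -0.55 and -0.51 with siADAR1 #2. Among other genes with at least its range, those nearest to it included ENSG00000259316 (r = 0.999), MCM4 (0.998) and GAREM2 (0.997).

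Genes that work with the kinases were followed in 10 lists of 148 genes, of which 147 were tested. With siADAR1 #1, 46 of them were called lower and 9 higher, and with siADAR1 #2, 89 lower and 4 higher. The lower calls were 31.3% and 60.5% of those tested, beside 11.0% and 16.0% of all genes. Of them, 19 of 46 and 29 of 89 were in the reference lists of S phase genes and kinesins, and in the other 8 lists 23.3% and 51.7% were called lower.

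Among 9 partners of the CDK1 switch, 1 fell with siADAR1 #1 and 7 with siADAR1 #2, with median log2FC values of -0.23 and -1.05, and the count with siADAR1 #1 was near the share of all genes. CCNB2, a cyclin B, was the one that fell with both (-0.66, adjusted p = 0.0235, and -1.11, adjusted p = 0.00182). CCNB1 had a log2FC of -0.36 (adjusted p = 0.121) with siADAR1 #1 and fell by 1.61 with siADAR1 #2 (adjusted p = 0.000482), and the siRNAs differed by -1.25 (adjusted p = 0.000701). The 2 partners not called with siADAR1 #2 were WEE1 and CDC25B, a phosphatase that activates CDK1, the latter at -0.18 (adjusted p = 0.252) and named after its values were seen.

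Of 15 other kinases of mitosis, 14 were tested and AURKC was below the filter. With siADAR1 #1, 3 fell and 3 rose, and with siADAR1 #2, 7 fell and 2 rose. HASPIN, the histone H3 kinase that recruits the passenger complex of AURKB, fell with both (-1.12, adjusted p = 0.00522, and -1.49, adjusted p = 0.000727). MELK, a kinase abundant in dividing cells, fell with both (-0.51, adjusted p = 0.0455, and -2.38, adjusted p = 0.000336), with counts of 7331 and 6778 in siControl, 4729 and 5194 with siADAR1 #1 and 1204 and 1523 with siADAR1 #2. The risers, named after their values were seen, were PLK2, PLK3 and NEK7 with siADAR1 #1 (log2FC 1.11, 0.64 and 1.02) and NEK7 and LATS2 with siADAR1 #2 (1.25 and 1.22). Of these, PLK2 and PLK3 are relatives of PLK1 with roles outside mitosis.

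Of 10 activators and partners of Aurora kinases and PLK1, 2 fell and 1 rose with siADAR1 #1, while 8 fell with siADAR1 #2. TPX2, which activates AURKA on the spindle, fell with both (-0.67, adjusted p = 0.0127, and -0.88, adjusted p = 0.0022) and was not called between them (-0.21, adjusted p = 0.234). The ratio of its normalized counts to those of AURKA, not divided by length, was 3.39 and 3.33 in siControl. It was 2.50 and 2.69 with siADAR1 #1 and 4.67 and 4.43 with siADAR1 #2. INCENP, the scaffold of the passenger complex, was at -0.20 (adjusted p = 0.338) with siADAR1 #1 and fell by 1.31 with siADAR1 #2 (adjusted p = 0.000646), a wider gap between the siRNAs (-1.11, adjusted p = 0.000769) than that of its kinase AURKB, though the 2 gaps were not tested against each other. The one that rose with siADAR1 #1, named after its values were seen, was AJUBA (0.82, adjusted p = 0.0158), a scaffold that activates AURKA.

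Of 8 centriole genes that act with PLK4, 2 fell with siADAR1 #1 and 5 with siADAR1 #2, and 0 rose. CENPJ, which sets centriole length, fell with both (-0.71, adjusted p = 0.012, and -0.86, adjusted p = 0.00294). STIL, the partner and substrate of PLK4, passed the adjusted p but not the fold threshold with siADAR1 #1 (-0.45, adjusted p = 0.034) and fell by 1.18 with siADAR1 #2 (adjusted p = 0.000619).

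Of 15 checkpoint and kinetochore partners of BUB1, BUB1B and TTK, 5 fell and 1 rose with siADAR1 #1, and 9 fell with siADAR1 #2. KNTC1 and ZWILCH are subunits of the same kinetochore complex. KNTC1 fell with both (-0.78, adjusted p = 0.009, and -0.76, adjusted p = 0.00441), and ZWILCH had a log2FC of -0.39 (adjusted p = 0.0656) with siADAR1 #1 and fell by 1.67 with siADAR1 #2 (adjusted p = 0.000384), and only ZWILCH was called between the siRNAs (-1.27, adjusted p = 0.000444). The riser, named after its values were seen, was BUB3 (0.51, adjusted p = 0.0134), the binding partner of BUB1 and BUBR1, which was not called with siADAR1 #2 (0.19, adjusted p = 0.184).

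Of 21 genes of the APC/C and mitotic exit, 7 fell and 1 rose with siADAR1 #1, and 10 fell and 1 rose with siADAR1 #2. CDC20, the activator that the checkpoint kinases restrain, was at -0.10 (adjusted p = 0.627) with siADAR1 #1 and fell by 0.89 with siADAR1 #2 (adjusted p = 0.00214). ESPL1, the protease separase, fell with both (-1.17, adjusted p = 0.00698, and -0.66, adjusted p = 0.0293), while its inhibitor PTTG1, securin, was at -0.46 (adjusted p = 0.11) and fell by 1.37 (adjusted p = 0.0014). Of 19 phosphatase genes that oppose mitotic kinases, 3 fell and 2 rose with siADAR1 #1 and 4 fell and 1 rose with siADAR1 #2, and the counts that fell were near the shares of all genes. PPP2R1B, a scaffold subunit of the phosphatase PP2A, rose with both (1.24, adjusted p = 0.00331, and 1.21, adjusted p = 0.000884), and ARPP19, a PP2A inhibitor, was at -0.06 (adjusted p = 0.784) with siADAR1 #1 and fell by 1.34 with siADAR1 #2 (adjusted p = 0.000669), with a called difference between them (-1.27, adjusted p = 0.000568).

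Among 20 genes for the transcription of G2 and M genes, 4 fell with siADAR1 #1 and 10 with siADAR1 #2. MYBL2 fell with both (-1.82, adjusted p = 0.00341, and -2.00, adjusted p = 0.000626), with 10757 and 9859 normalized counts in siControl, 2329 and 3645 with siADAR1 #1 and 2568 and 2565 with siADAR1 #2. FOXM1 fell with both (-1.39, adjusted p = 0.00878, and -1.16, adjusted p = 0.00809), from 12989 and 13681 to 3914 and 6583 and to 5356 and 6630. Neither was called between the siRNAs (-0.18, adjusted p = 0.511, and 0.23, adjusted p = 0.474), while 6 of the 20 were called lower and 2 higher with siADAR1 #2 than with siADAR1 #1.

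For reference, 13 of 18 genes of S phase fell and 1 rose with siADAR1 #1, and 16 fell with siADAR1 #2. MCM5, of the replicative helicase, fell with both (-1.58, adjusted p = 0.00411, and -1.15, adjusted p = 0.00462), and CDC6, which loads it, was at -0.47 (adjusted p = 0.0343) and fell by 1.74 (adjusted p = 0.000346). Of 13 mitotic kinesins, 6 fell with siADAR1 #1 and 13 with siADAR1 #2. KIF20A fell with both (-1.25, adjusted p = 0.00344, and -0.76, adjusted p = 0.00548), and so did KIF11 (-0.69, adjusted p = 0.016, and -1.57, adjusted p = 0.000489). The median log2FC was -0.71 and -1.08 for the S phase genes and -0.51 and -0.95 for the kinesins, beside -0.53 and -1.06 for the kinases.

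**Figure D5:**
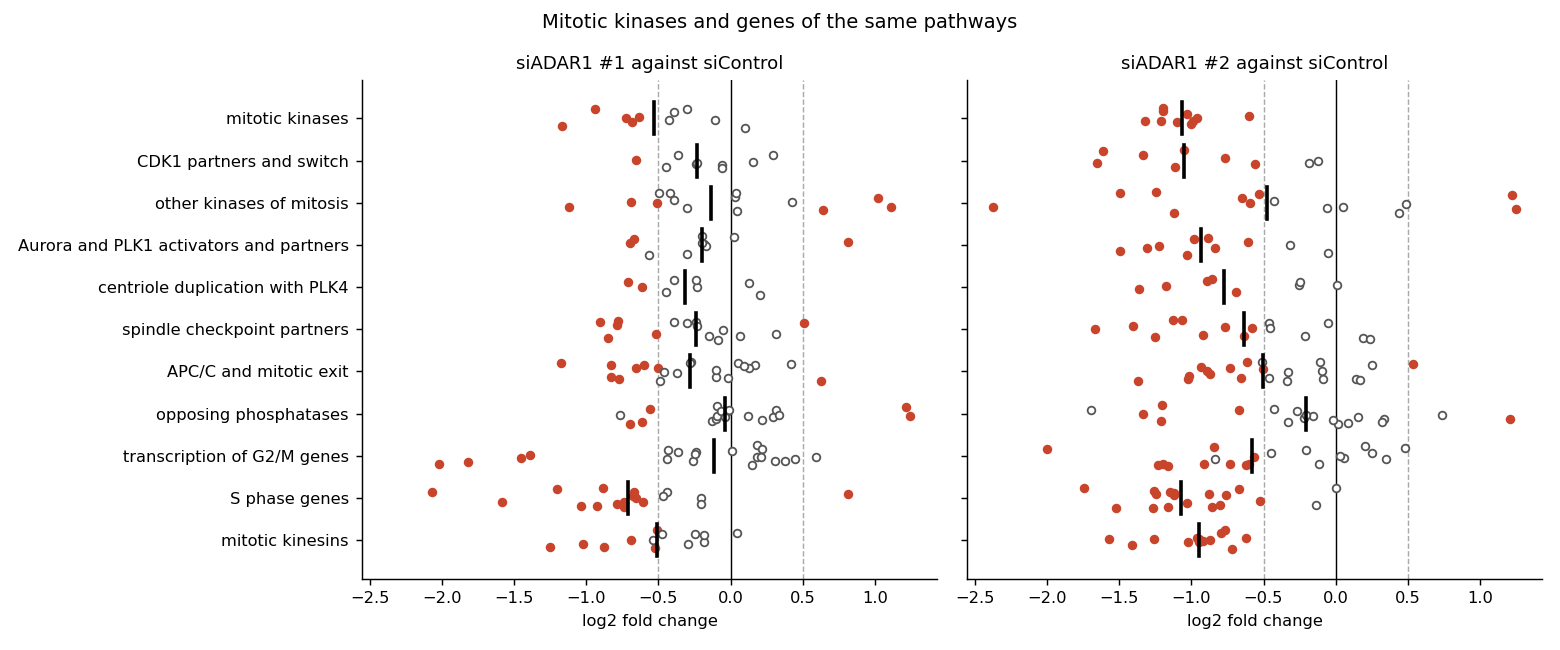
Log2 fold change of each gene (points, spread vertically only to separate them) for the 10 kinases and 10 lists of related genes, with siADAR1 #1 and siADAR1 #2 against siControl. Filled points were called, vertical bars are list medians and dashed lines mark 0.5; the kinase medians are -0.53 and -1.06.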

How the data were processed

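Poly(A)+ RNA of Cal62 cells was sequenced from 2 biologically independent replicates per transfection, which the labels list as 1 sample with 2 columns each. The authors trimmed adapters, counted reads on genes with featureCounts, quantified isoforms with Salmon in parallel, and normalized gene counts with DESeq2, preferring those derived from Salmon. Which counts lie behind the deposited table is not stated. The deposited values are log2 values after a variance-stabilizing transformation, read from the values themselves: the lowest, 0.347736, stands for 0 reads, and undoing the transformation gave whole reads for 100% of values within 0.1. The build is GRCh38, and neither the annotation release nor the use of strand is given in the sources used here. Columns left unused numbered 0. A GENCODE 44 symbol was found for 57830 of 58333 identifiers.

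The log2 values as deposited were fitted with limma 3.58.1 in R 4.3.3 (lmFit, eBayes with trend, two-sided, Benjamini-Hochberg over 20247 genes), with 3 groups (3 residual degrees of freedom) or both siRNAs as 1 group (4). Genes entered at a mean of at least 10 normalized counts. Tests on simulated reads were run first. The 10 kinases and the lists were chosen with earlier results of these data known. Besides the kinases and ADAR, the text names WEE1, CCNB1, CDC20, FOXM1, MYBL2, in each list the gene with the smallest adjusted p with each siRNA, and, of the 5 genes most like the mean profile, those reported here; a few genes the rule or the marker lists hold are not reported here. Others are marked as chosen after their values were seen. Alternatives covered filters, scaling, the spread model, a pseudocount of 1 before taking logs, voom applied to recovered reads, leaving out each library, and a replicate block.

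Exons of BUB1B (with PAK6, 5.4% of exon bases, same strand) and PLK1 (with a long noncoding RNA, 11.6%, opposite strand) also overlap other genes, which held at most 70 and 17 reads. The 7 annotated pseudogenes named after a kinase held 0 to 18 reads per library.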

Additional observations from a re-analysis of the deposited data

Results flagged for a closer look

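For 5 kinases the response to one siRNA differed from that to the other by the test of the difference itself (siADAR1 #2 against siADAR1 #1, limma, adjusted over all genes tested). The difference was -1.02 on the log2 scale for AURKA, -0.51 for AURKB, -0.64 for PLK4, -0.85 for BUB1 and -1.31 for TTK. ADAR was not called between the siRNAs (0.35, adjusted p = 0.406). The calls for AURKA, BUB1 and TTK held under all 16 alternatives tried, that for PLK4 under 13 and that for AURKB under 7. Groups of 2 libraries allowed no search for single outlying libraries.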

How the results depend on the processing

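Each kinase and comparison was recomputed under 16 alternatives. With siADAR1 #2, 9 or 10 of 10 kinases were called under each of them, NEK2 or, without siControl replicate 2, PKMYT1 being the one lost. Over all genes, the 3234 called lower with siADAR1 #2 became 1739 when siControl replicate 1 was dropped and 1962 when the first siADAR1 #2 library was. With siADAR1 #1 the 5 calls became 1 without the eBayes trend and 0 to 5 when single libraries were left out, and without siControl replicate 1, where 155 genes were called lower in all, 0 remained. Between the siRNAs, 5 calls became 6 after median centring, which added BUB1B, 3 without the trend and 3 to 5 when libraries were left out (3 without siADAR1 #1 replicate 2 or siADAR1 #2 replicate 2). For both siRNAs as 1 group, 0 became 10 with the average of the changes in the fit with 3 groups, since that fit does not count the difference between siRNAs as spread, and leaving out single libraries gave 0 to 0. The cause of the other changes was not tested. Where an alternative turned a direction, no call was involved. With siADAR1 #1, median centring, which moves the median of all genes from -0.03 to 0.11, put BUB1 at 0.0315, and leaving out single libraries put TTK between -0.0765 (no siControl replicate 2) and 0.27. Between the siRNAs, leaving out single libraries put PLK1 between -0.26 and 0.20 (above 0, at 0.20 and 0.06, without siADAR1 #1 replicate 2 or #2 replicate 1) and PKMYT1 between -0.30 and 0.17 (above 0, at 0.17 and 0.04, without replicate 2 of #1 or of #2). Quantile scaling put PLK1 at 0.0503.

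The columns carry replicate numbers. The difference of replicate 2 from replicate 1 had a correlation of 0.11, 0.13 and 0.15 between pairs of groups over 20247 genes, and with 2 numbers the libraries were taken to share only a number. With the replicate block, 5, 10 and 5 kinases were called, and 0 for both siRNAs as 1 group, as without it. Each kinase had at least 552 reads in each library, and groups held 2 libraries; which of these limits the calls more was not tested.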
